A study of Mus musculus with 7 samples.

Results

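The 37 genes described here encode the transcription factor Nrf2 and its regulators, the enzymes that make and recycle glutathione, the thioredoxin system, NADPH-supplying enzymes, quinone and carbonyl reductases, heme and iron proteins, glutathione transferases, export pumps and UDP-glucuronosyltransferases. They were taken by gene symbol from a table of 29955 gene rows. They were listed by function, without a threshold on measured values, but with earlier results of these data known. All 37 symbols were found. RNA was sequenced from mouse embryonic fibroblasts (MEFs), connective tissue cells grown from embryos, of strain C57BL/6. All groups carry a p53 knockout (p53 KO) and were grown in DMEM with fetal calf serum and antibiotics. Of the 7 libraries, 3 are labelled p53 KO, 2 are labelled p53Mdm2 KO (loss of p53 and of its ubiquitin ligase Mdm2), and 2 are labelled p53 KO with a knock-in of Mdm2 C462A, a substitution in the RING domain that carries the ligase activity. The labels do not describe the alleles, the passage or age of the cells, or whether replicates are separate embryos or cultures. The spread that the p-values measure is thus that of these libraries, and it may be technical.

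Nrf2, encoded by Nfe2l2, is held at low levels by Keap1, an adaptor that presents it to a Cul3 ubiquitin ligase. When oxidants or electrophiles modify Keap1, Nrf2 accumulates, pairs with small Maf proteins at antioxidant response elements and switches on many of the genes below. Several of them also answer to other factors: heme and its repressor Bach1 act on Hmox1, and the aryl hydrocarbon receptor acts on Nqo1 and the Ugt1a genes.

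The libraries held 28468283 to 41453822 reads in genes. Values are normalized reads, that is reads divided by a library size factor, and 3 reads, taken as the floor of detection, equalled 2.65 to 3.86 normalized reads. Values of a gene are listed in replicate order, and a difference is one of deposited log2-like values, a scale that compresses low values. On the first principal component of all tested genes, with 44.3% of the variance, p53 KO replicate 1 lay at -114.9 and the other libraries at 11.9 to 24.8, and on the second, with 24.9%, Mdm2 C462A replicate 2 lay at 77.5 and the next library at 9.3. Of 10 fibroblast markers, 9 exceeded 100 normalized reads in every library. The exception was Thy1, with 99.1 normalized reads in p53 KO replicate 1 and at least 6592 elsewhere, and Col1a2 was also lowest there (3456 normalized reads, against at least 175050.4 elsewhere). Other fibroblast markers moved with the groups: Vim (0.475 times) and S100a4 (0.247 times) lay below p53 KO without overlap in Mdm2 C462A, Dcn lay above it (2.73 times), and Col1a1 and Col3a1 lay below it in both other groups (0.435 to 0.544 times). Col1a2, Thy1, Pdgfra, Pdgfrb and Fn1 overlapped p53 KO in both groups. Over all tested genes, 14.1% lay above and 14.4% below p53 KO without overlap in Mdm2 C462A, and 8.99% and 9.2% in p53Mdm2 KO. The part of these markers in the members' differences was not tested. The hepatocyte markers Alb, Ttr and Apoa1 were at or under 3 reads in every library, and Afp had at most 3.7 normalized reads. The summed macrophage and leukocyte markers were 315.7 to 483.1 normalized reads in Mdm2 C462A and 367.6 to 1084 in p53 KO. Over all libraries, summed epithelial markers ran from 65.66 to 1261 and endothelial markers from 72.71 to 1038. Skeletal muscle markers ran from 144.2 to 2393 and neural markers from 1823 to 13018. The endothelial marker Kdr lay above p53 KO without overlap in p53Mdm2 KO (693.1 and 994.0 against at most 442.7). Sox2 (492.6) and Cdh1 (345.4) were highest in p53 KO replicate 1. Mdm2 had 1746 to 1994 normalized reads in p53 KO, 1574.5 and 2334 in p53Mdm2 KO, and 2033 and 2887 in Mdm2 C462A, and Trp53 was read in every library (687.1 to 1775.5 normalized reads). Mdm2 lay above p53 KO without overlap in Mdm2 C462A, and Trp53 did so in p53Mdm2 KO (1603 and 1775.5 against at most 1396), while Mdm2 in p53Mdm2 KO overlapped p53 KO. These totals do not check the labels, since the deleted parts are not described. In bulk RNA, fewer cells of a type and less RNA per cell cannot be told apart.

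The question for each group was how the antioxidant genes compare between p53-deficient fibroblasts with Mdm2, without it and with the C462A form. In the Mdm2 C462A libraries, Hmox1, Sqstm1, the glutathione transferases Gsta4 and Mgst1 and the Ugt1a entries lay above the p53 KO libraries. So did 14.1% of all tested genes. Gsta3 and Mgst2 also lay above, but they reached the average of 10 normalized reads needed for testing only through Mdm2 C462A. Nqo1, Gclc, Gclm, Txnrd1, Srxn1 and the NADPH enzymes had differences of -0.35 to 0.30. In limma across 16900 genes with an average of at least 10 normalized reads, 0 of 37 members passed an adjusted p of 0.05 in any of the 3 comparisons, as did 0% of all genes tested in each. The lowest adjusted p of a member was 0.437 for Mdm2 C462A against p53 KO and 1.0 in the other comparisons, and voom on the recovered reads also called 0 members. The counts that follow use the unadjusted p. They are descriptions only, since the lists were chosen with earlier results of these data known.

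Against p53 KO, 9 of 37 members (24.3%) in Mdm2 C462A had an unadjusted p under 0.05, all of them higher, beside 4.98% of all tested genes that were higher and 5.44% that were lower at this p (10.4% in either direction, 1761 genes). These were Hmox1, Sqstm1, Gsta3, Gsta4, Mgst1, Mgst2, Ugt1a6, Ugt1a6a and Ugt1a7c. Because the Ugt1a entries share exons, the 9 stand for 7 loci. Gsta3 and Mgst2 averaged 4.07 and 7.21 normalized reads over the other 5 libraries and reached the filter only through Mdm2 C462A, the group where they are high, so they had to differ and are no support. Of the other 35 members, 7 were under 0.05. The same 9 genes lay above p53 KO without overlap of the groups, a share to be read beside 14.1% of all genes, and Tkt alone lay below without overlap, beside 14.4%. Of the 37 members, 21 had a positive difference, with a median of 0.16 against 0.01 over all tested genes. Mdm2 C462A replicate 2 decided the count: without it, Hmox1, Mgst2 and Ugt1a6 remained under 0.05 (3 members, beside 2.16% of all genes higher). With 1 library left in the group, the difference of Gsta4 was 1.51, against 1.78 with both. That of Sqstm1 was 0.72, against 1.21. Without both libraries that stand apart, which leaves 1 Mdm2 C462A library assumed to vary like the others, 6 members were under 0.05, namely Hmox1, Mgst2, Ugt1a6, Fth1, Gstm1 and Nqo1 (3.53% of all genes higher), and the members' median was 0.41.

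In p53Mdm2 KO against the same p53 KO libraries, 2 members had an unadjusted p under 0.05, beside 3% of all genes (507 genes): Hmox1 was higher (1.51% of all genes) and Blvrb lower (1.49%). Without overlap, 6 members lay above p53 KO (16.2%, beside 8.99% of all genes), namely Hmox1, Sqstm1, Gclm, Akr1b8, Gsta3 and Mgst2, and only Blvrb lay below (beside 9.2%). The count was 1 when p53Mdm2 KO replicate 1 or either Mdm2 C462A library was left out of the fit, and 3 without both libraries that stand apart (Hmox1, Gclm and Nqo1, beside 2.44% of all genes higher). The difference was positive for 26 of 37 members, with a median of 0.09 against -0.01 over all genes. Both comparisons rest on the same p53 KO libraries, so their values are not independent of each other.

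**Figure D1:**
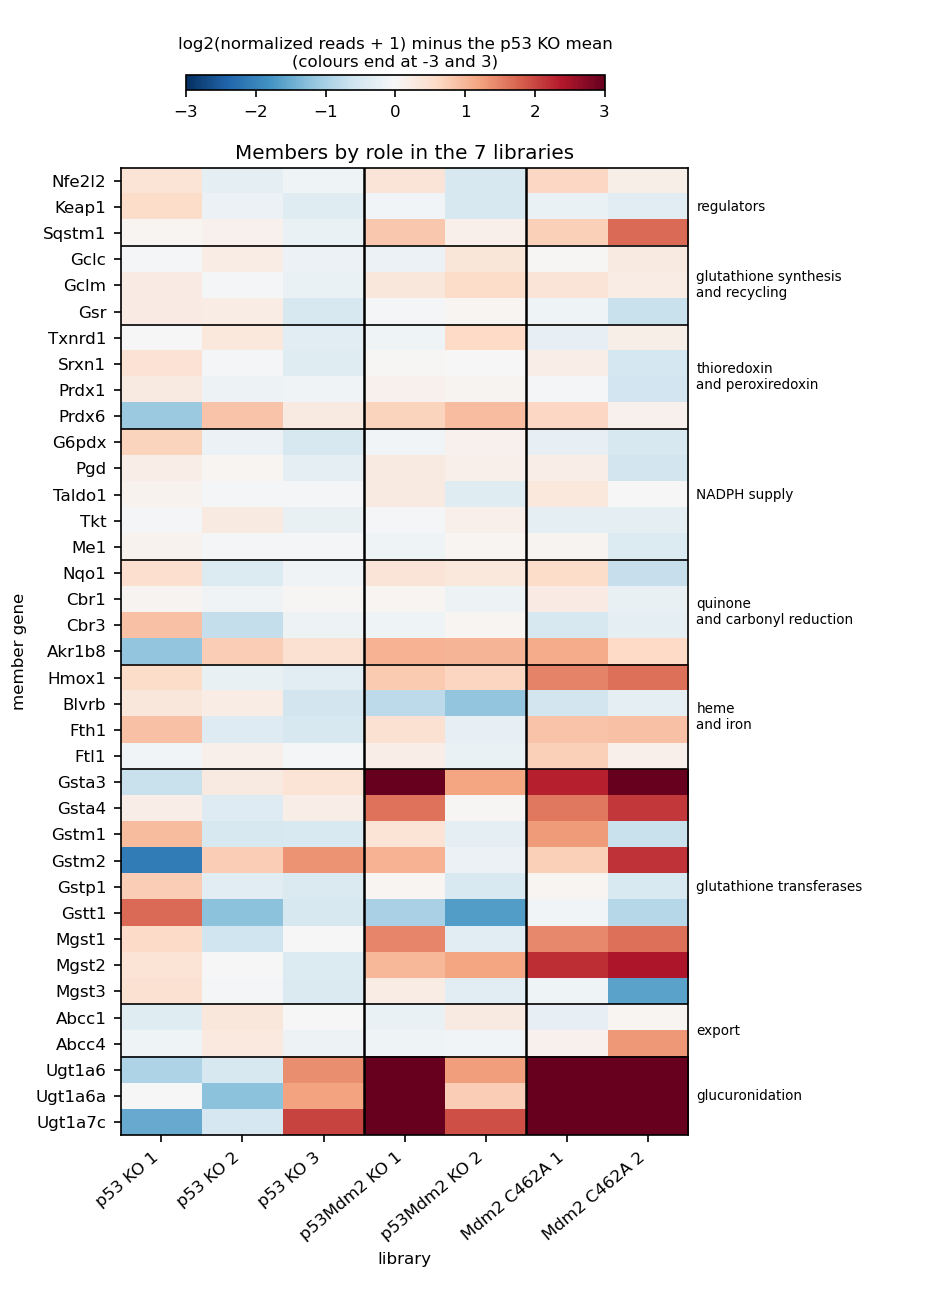
Each row is a member gene and each column a library, with members grouped by role. Colour gives log2(normalized reads + 1) minus the mean of the p53 KO libraries, ending at -3 and 3. The glutathione synthesis and NADPH rows stay pale in all libraries, whereas the Ugt1a rows and several transferase rows are dark red in Mdm2 C462A.

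Among the regulators, Nfe2l2 had 3933, 2448 and 2704 normalized reads in p53 KO, 3871 and 2114 in p53Mdm2 KO, and 4593 and 3330 in Mdm2 C462A. All 3 groups overlapped, with the highest value in Mdm2 C462A replicate 1 and the lowest in p53Mdm2 KO replicate 2. The difference of Nfe2l2 from p53 KO was 0.40 in Mdm2 C462A (95% interval -0.41 to 1.21) and -0.05 in p53Mdm2 KO (-0.86 to 0.76). Keap1 had 3431, 2057 and 1821 normalized reads in p53 KO, 2199.9 and 1684 in p53Mdm2 KO, and 2024 and 1843 in Mdm2 C462A. The p53 KO replicate 1 value of Keap1 was 1.56 times that of the next highest library, and the other 6 lay between 1684 and 2199.9. The difference from p53 KO was -0.28 in each of the other groups, and without p53 KO replicate 1 it was 0.00 in Mdm2 C462A after rounding.

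Sqstm1 encodes p62, an autophagy receptor that binds Keap1 and is itself an Nrf2 target. Its values were 11439.5, 12063 and 9663 normalized reads in p53 KO, 19194 and 12262 in p53Mdm2 KO, and 18100.3 and 35788 in Mdm2 C462A. Every library of the latter groups exceeded every p53 KO library, and Mdm2 C462A replicate 2 stood highest. For Mdm2 C462A the difference was 1.21 ± 0.346 (SE, limma adjusted p = 0.437), and without replicate 2 of that group it was 0.72. In p53Mdm2 KO it was 0.48 ± 0.346 (adjusted p = 1.0), with 0.16 when replicate 1 of that group was left out and 0.80 when replicate 2 was. Of the 50-base windows in Sqstm1 transcripts, 15.5% also occur in the neighbouring gene Mrnip, so a part of these reads may not belong to Sqstm1.

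Glutathione is made by glutamate-cysteine ligase, whose catalytic and modifier subunits are Gclc and Gclm, and its oxidized form is recycled by glutathione reductase, Gsr. Gclc had 918.0, 1121 and 846.7 normalized reads in p53 KO, 838.7 and 1232 in p53Mdm2 KO, and 986.3 and 1150.1 in Mdm2 C462A, with all groups overlapping. Gclm had 1277, 1033 and 931.9 in p53 KO, 1349 and 1578.5 in p53Mdm2 KO, and 1394 and 1250.6 in Mdm2 C462A. Both p53Mdm2 KO libraries lay above the p53 KO libraries for Gclm, by 0.44 ± 0.198 (adjusted p = 1.0), whereas Mdm2 C462A overlapped p53 KO. Gsr had 2159, 2146 and 1314 normalized reads in p53 KO, 1769 and 1890.1 in p53Mdm2 KO, and 1675 and 1157 in Mdm2 C462A. The Mdm2 C462A libraries thus lay below both p53Mdm2 KO libraries for Gsr (-0.39 ± 0.311, adjusted p = 1.0) but overlapped p53 KO.

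The thioredoxin members were thioredoxin reductase 1 (Txnrd1), sulfiredoxin (Srxn1), which repairs overoxidized peroxiredoxins, and the peroxide-removing Prdx1 and Prdx6. Prdx1 had 18134.5, 13396 and 13895 normalized reads in p53 KO, 16418 and 15861 in p53Mdm2 KO, and 14608 and 10030.7 in Mdm2 C462A. Txnrd1 ran from 7459.5 to 13908 normalized reads over the 7 libraries and Srxn1 from 1369 to 2665, with the groups overlapping in all comparisons. Prdx6 had 1711 normalized reads in p53 KO replicate 1, whereas the remaining p53 KO libraries had 6768 and 4465, with 5957 and 7040.1 in p53Mdm2 KO and 5758.5 and 4046.5 in Mdm2 C462A. Between p53 KO and either of the other groups, 0 of these 4 members differed without overlap. Mdm2 C462A lay below p53Mdm2 KO without overlap for Prdx1 (-0.41 ± 0.260) and Prdx6 (-0.42 ± 0.603), each with an adjusted p of 1.0.

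NADPH for these reductases comes from the pentose phosphate pathway, here G6pdx, Pgd, Taldo1 and Tkt, and from malic enzyme, Me1. Their differences ran from -0.35 to 0.16 in Mdm2 C462A and from -0.05 to 0.21 in p53Mdm2 KO, both against p53 KO. Tkt, transketolase, had 9124.5, 11411 and 8083 normalized reads in p53 KO, 9279 and 10502 in p53Mdm2 KO, and 7893.5 and 7891 in Mdm2 C462A. The Mdm2 C462A values of Tkt were below those of all the other libraries, by a small margin to p53 KO replicate 3 (-0.26 ± 0.196, adjusted p = 0.691). G6pdx, the entry enzyme of the pathway, had 3308 normalized reads in p53 KO replicate 1 and 1507 to 2311 in the other 6 libraries. Mdm2 C462A lay below p53Mdm2 KO without overlap for G6pdx (1780.2 and 1507 against 1993 and 2311). Me1 ranged from 4436 to 6251.5 normalized reads, Pgd from 3638 to 6409 and Taldo1 from 2372 to 3782.

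Nqo1, the quinone reductase often used as a readout of Nrf2, had 516.3, 272.0 and 339.8 normalized reads in p53 KO, 474.1 and 454.5 in p53Mdm2 KO, and 532.2 and 224.9 in Mdm2 C462A. The highest and the lowest value both came from Mdm2 C462A. Its difference from p53 KO was -0.06 in that group, with a 95% interval of -1.07 to 0.95, so shifts of close to 1 log2 unit either way could not be told from none. Cbr1, a carbonyl reductase, stayed between 637.7 and 879.1 normalized reads. Its paralog Cbr3 had 475.4 in p53 KO replicate 1 and 155.9 to 266.5 in the others. Akr1b8, an aldo-keto reductase, had 220.9, 839.1 and 692.5 normalized reads in p53 KO, 1036 and 1021 in p53Mdm2 KO, and 1095 and 767.3 in Mdm2 C462A. Both p53Mdm2 KO values of Akr1b8 exceeded all p53 KO values (0.99 ± 0.544, adjusted p = 1.0), and without p53 KO replicate 1 the difference was 0.42.

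Hmox1 encodes heme oxygenase 1, which breaks heme down to biliverdin, iron and carbon monoxide. It had 4324, 2522 and 2303 normalized reads in p53 KO, 5033 and 4607 in p53Mdm2 KO, and 8258 and 9277.5 in Mdm2 C462A. The groups were ordered without overlap, with means of 3049 ± 1109 (SD, n = 3), 4820.0 ± 301.7 (SD, n = 2) and 8768 ± 720.6 (SD, n = 2). Mdm2 C462A was 2.88 times p53 KO by the ratio of means, a log2 difference of 1.57 (95% interval 0.88 to 2.26, limma adjusted p = 0.437), the smallest p among members in this comparison. It was 1.49 without Mdm2 C462A replicate 2, 1.85 without p53 KO replicate 1 and 1.77 without both. The p53Mdm2 KO libraries lay 0.71 ± 0.287 above p53 KO (adjusted p = 1.0) and 0.86 ± 0.315 below Mdm2 C462A (adjusted p = 1.0). Hmox1 shared 0% of its 50-base windows with another gene.

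Blvrb encodes biliverdin reductase B. It had 632.6, 585.7 and 344.1 normalized reads in p53 KO, 293.2 and 221.5 in p53Mdm2 KO, and 340.8 and 410.1 in Mdm2 C462A. Both p53Mdm2 KO libraries were below all the others, and the difference from p53 KO was -0.93 ± 0.319 (adjusted p = 1.0). The iron-storing ferritin chains are Fth1 and Ftl1. Fth1 had 27794, 11507 and 10890.5 normalized reads in p53 KO, 20851 and 12816 in p53Mdm2 KO, and 27370.0 and 27783 in Mdm2 C462A. Both Mdm2 C462A libraries had more than either p53Mdm2 KO library, but p53 KO replicate 1 had as much, and the difference from p53 KO was 0.86 ± 0.453 (adjusted p = 0.562). For Ftl1, 58.4% of windows recur in other genes, largely processed copies, so its values (35153 to 65670 normalized reads) are uncertain.

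**Figure D2:**
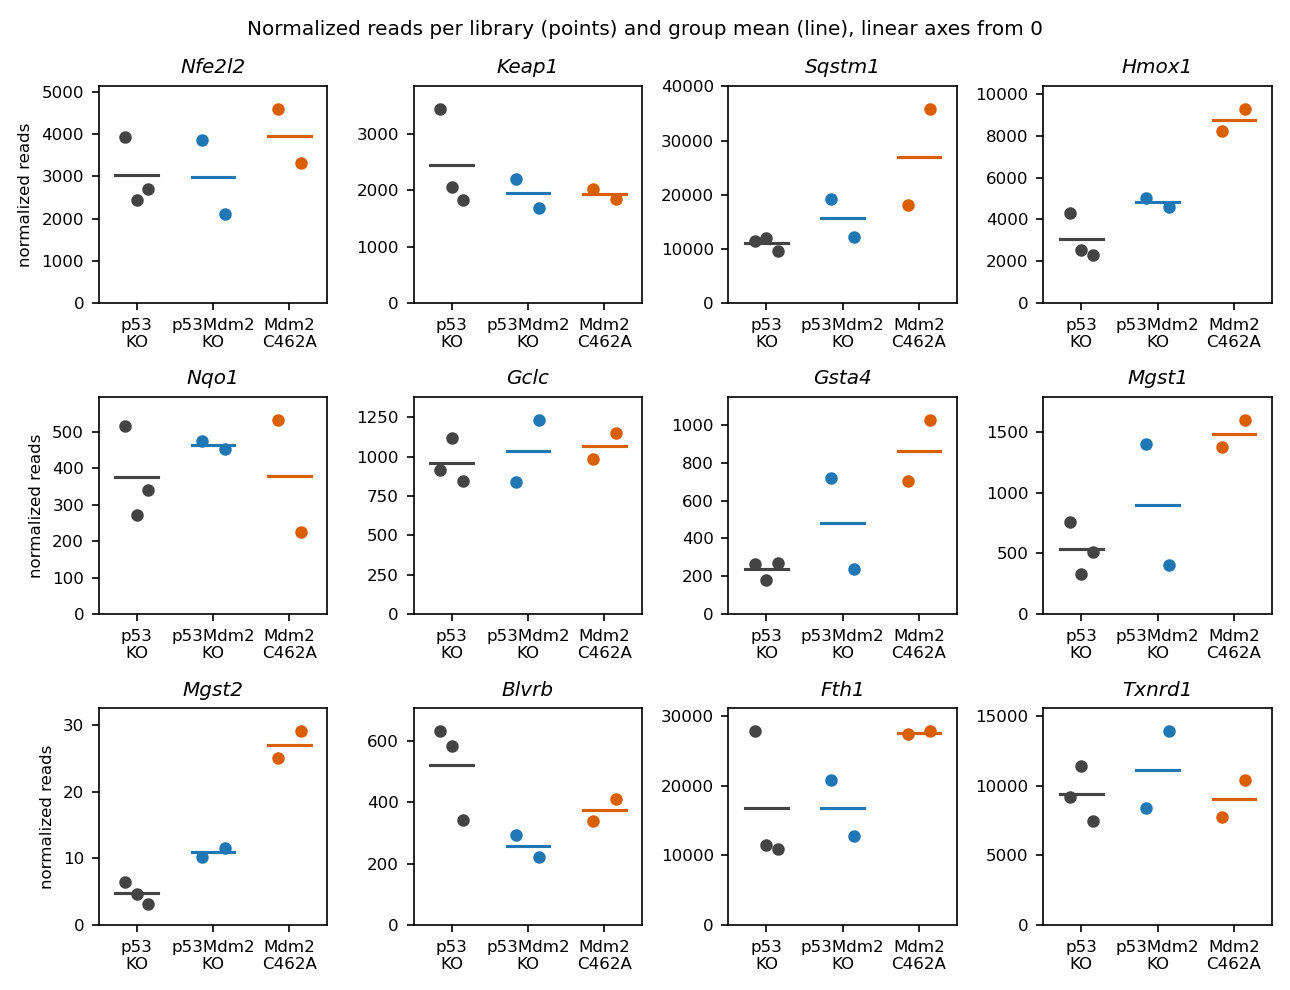
Normalized reads of selected members in each of the 7 libraries, one panel per gene with a linear axis from 0. Points are libraries, lines are group means and colours are groups. Hmox1 separates the 3 groups, whereas the Nqo1 and Keap1 points of the groups overlap.

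Glutathione transferases couple glutathione to electrophiles, and the Mgst proteins are their membrane-bound counterparts. Of 9 members, Gsta4 and Mgst1 had an unadjusted p under 0.05 in Mdm2 C462A against p53 KO (beside 4.98% of all genes higher), as did Gsta3 and Mgst2, which reached the filter only through that group. In p53Mdm2 KO, 0 of the 9 did (beside 1.51%). Gsta4, which acts on the lipid peroxidation product 4-hydroxynonenal, had 267.2, 178.2 and 267.5 normalized reads in p53 KO, 720.0 and 240.8 in p53Mdm2 KO, and 702.6 and 1026 in Mdm2 C462A. The Mdm2 C462A values of Gsta4 were 3.64 times p53 KO by the ratio of means, a difference of 1.78 ± 0.473 (adjusted p = 0.437), with p53Mdm2 KO split between a high and a low library. Mgst1 had the same split, with 756.2, 332.3 and 513.4 normalized reads in p53 KO, 1400.1 and 401.7 in p53Mdm2 KO, and 1376 and 1598 in Mdm2 C462A (difference from p53 KO 1.51 ± 0.557, adjusted p = 0.452).

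Mgst2 was low but above the floor in nearly all libraries, with 6.4, 4.6 and 3.2 normalized reads in p53 KO, 10.2 and 11.6 in p53Mdm2 KO, and 25.1 and 29.1 in Mdm2 C462A. It ordered the 3 groups without overlap. However, Mgst2 and Gsta3 reached the filter only through Mdm2 C462A, so their height in that group is no support. Mdm2 C462A was 5.71 times p53 KO by the ratio of means. On the deposited scale this is 1.19 ± 0.227 (adjusted p = 0.437), and on log2(reads + 1) it is 2.32. Gsta3 was at or under the floor of detection in p53 KO (0.0, 0.9 and 1.1 normalized reads), with 15.8 and 2.6 in p53Mdm2 KO and 7.0 and 66.1 in Mdm2 C462A. The difference of Gsta3 between Mdm2 C462A and p53 KO was 1.81 (adjusted p = 0.437), and without Mdm2 C462A replicate 2 it was 0.86; on log2(reads + 1) it was 3.87 with all libraries.

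The other transferases did not separate the groups from p53 KO. Gstm2 had 64.5, 464.1 and 712.9 normalized reads in p53 KO, 572.5 and 247.2 in p53Mdm2 KO, and 454.1 and 1257 in Mdm2 C462A. Gstt1 had 405.4, 52.9 and 89.5 in p53 KO, 63.1 and 38.6 in p53Mdm2 KO, and 118.3 and 68.8 in Mdm2 C462A, so the p53 KO replicate 1 value was 3.43 times that of the next highest library. In the same library Gstp1 was 3799 normalized reads against 1647 to 2367 in the rest. A share of 33.7% of Gstp1 windows recurs in Gstp2 and a pseudogene. Gstm1 spanned 517.7 to 1974 normalized reads, with both ends in Mdm2 C462A, and shared 18.9% of its windows with related genes. Mgst3 had its lowest value, 236.4, in Mdm2 C462A replicate 2 and 540.4 to 1001 in the other libraries (difference from p53 KO -0.84 ± 0.473, adjusted p = 0.589).

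Over all members, p53 KO replicate 1 held the highest value of 12 and the lowest of 7, and Mdm2 C462A replicate 2 the highest of 11 and the lowest of 12. Over all tested genes these libraries held the highest value of 28.1% and 21.2% and the lowest of 26.5% and 21.3%. Mdm2 C462A replicate 1 held the highest value of 7 members and the lowest of 0, beside 10.9% and 7.8% of all tested genes. For Mgst1, Gsta4 and the Ugt1a entries, p53Mdm2 KO replicate 1 was the higher of its pair.

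Of the export pumps that carry glutathione conjugates out of the cell, Abcc1 had 5343.5, 8685 and 6851 normalized reads in p53 KO, 5932.5 and 8272 in p53Mdm2 KO, and 5766.5 and 7085 in Mdm2 C462A. The groups overlapped throughout, and its differences were 0.04 and -0.09. Abcc4 had 581.7, 789.9 and 573.8 in p53 KO, 586.4 and 609.0 in p53Mdm2 KO, and 704.6 and 1577 in Mdm2 C462A. Mdm2 C462A exceeded p53Mdm2 KO without overlap for Abcc4, with replicate 2 highest (0.80 ± 0.390, adjusted p = 1.0).

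UDP-glucuronosyltransferases of the Ugt1a locus attach glucuronic acid to phenols, bilirubin and drugs. The locus has alternative first exons spliced to shared later exons, and 52.1% of the 50-base windows of Ugt1a6a and 53.7% of those of Ugt1a7c occur in other genes, mostly other Ugt1a entries. Their reads are therefore not separate measurements. Ugt1a6a had 14.5, 5.6 and 34.5 normalized reads in p53 KO, 168.9 and 24.5 in p53Mdm2 KO, and 139.3 and 1062 in Mdm2 C462A. Ugt1a7c had 1.8, 4.6 and 31.3 in p53 KO, 266.3 and 29.6 in p53Mdm2 KO, and 122.3 and 551.2 in Mdm2 C462A. The row named Ugt1a6, a symbol not found in the transcript set used for the windows, had 1.8, 2.8 and 12.9 in p53 KO, 42.7 and 11.6 in p53Mdm2 KO, and 63.1 and 478.0 in Mdm2 C462A. Mdm2 C462A replicate 2 was highest for each entry, and p53 KO lay below both Mdm2 C462A libraries for each, while p53Mdm2 KO replicate 2 overlapped p53 KO.

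Differences between Mdm2 C462A and p53 KO were 3.66 ± 0.979 for Ugt1a6a, 3.52 ± 0.971 for Ugt1a7c and 3.34 ± 0.795 for Ugt1a6, each with a limma adjusted p of 0.437. Without Mdm2 C462A replicate 2 they were 2.28, 2.51 and 2.04, and without p53 KO replicate 1 as well 2.25, 2.18 and 1.86. The p53Mdm2 KO libraries gave 1.45 ± 0.979, 2.24 ± 0.971 and 1.06 ± 0.795 for Ugt1a6a, Ugt1a7c and Ugt1a6, with adjusted p of 1.0, and without p53Mdm2 KO replicate 1 they were 0.37, 0.95 and 0.51. The table holds 9 Ugt1a entries. Of those outside the members, Ugt1a1, Ugt1a2, Ugt1a5, Ugt1a9 and Ugt1a10 had 223.1 to 245.2 normalized reads in Mdm2 C462A replicate 2, 25.1 to 38.1 in replicate 1, 49.2 to 65.9 and 2.6 to 9.0 in p53Mdm2 KO, and 0.9 to 14.0 in p53 KO. Ugt1a6b had 493.9 in Mdm2 C462A replicate 2. The values of these 5 entries lay close together within Mdm2 C462A replicate 2, and which first exon was in use cannot be told from gene totals.

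**Figure D3:**
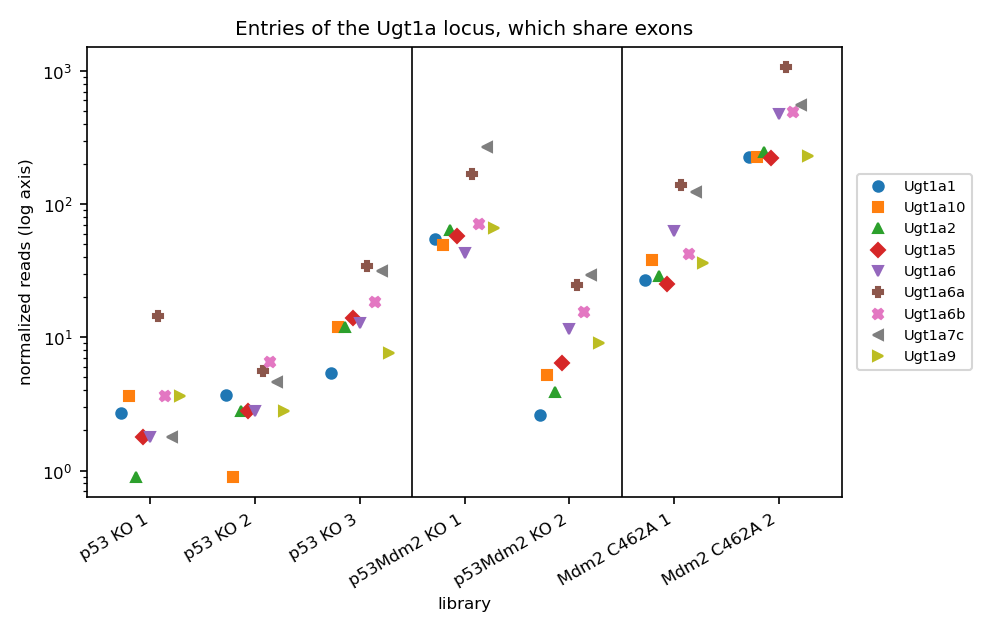
Normalized reads of the Ugt1a entries on a log axis, by library, with 1 symbol per entry and vertical lines between the groups. For every entry the highest point is in Mdm2 C462A replicate 2, where values run from 223.1 to 1062.

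Promoter sequences bear on these differences only as description. Windows of 250 bases ending at the transcript start were taken from RefSeq (build GRCm38.p6; the reads were aligned to mm9, so no coordinate is shared) for 30 of the 37 members, in 39 windows. The core of the antioxidant response element, TGACNNNGC, was searched on both strands. It was present in 9 of 39 windows (23.1%), belonging to Gclm, Txnrd1, Gsta3, Mgst1, Nfe2l2, Prdx1, Abcc4 and G6pdx, beside 10.2% of all 32851 windows of that length. The core bound by the aryl hydrocarbon receptor, GCGTG, whose matches can overlap the first motif at the letters GC, was in 20 of 39 (51.3%) beside 28.2%. The sequences below, 5′ to 3′ in the orientation of the gene, set 2 members whose values overlapped between Mdm2 C462A and p53 KO (Gclm, Txnrd1) beside 3 whose values did not (Gsta3, Mgst1, Ugt1a6a); capitals mark the antioxidant core, on either strand.
Gclm, chr3:122245307-122245556, + strand: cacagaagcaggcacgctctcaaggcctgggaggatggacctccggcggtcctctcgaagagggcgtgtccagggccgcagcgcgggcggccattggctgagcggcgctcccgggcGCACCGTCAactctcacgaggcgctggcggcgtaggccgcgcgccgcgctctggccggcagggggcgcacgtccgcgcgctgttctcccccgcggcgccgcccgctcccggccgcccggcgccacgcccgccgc
Txnrd1, chr10:82858956-82859205, + strand: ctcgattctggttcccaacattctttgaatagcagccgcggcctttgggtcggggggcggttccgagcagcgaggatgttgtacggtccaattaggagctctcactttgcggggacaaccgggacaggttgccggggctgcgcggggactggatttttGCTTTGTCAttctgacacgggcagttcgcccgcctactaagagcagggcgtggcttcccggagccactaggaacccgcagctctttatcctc
Gsta3, chr1:21240335-21240584, + strand: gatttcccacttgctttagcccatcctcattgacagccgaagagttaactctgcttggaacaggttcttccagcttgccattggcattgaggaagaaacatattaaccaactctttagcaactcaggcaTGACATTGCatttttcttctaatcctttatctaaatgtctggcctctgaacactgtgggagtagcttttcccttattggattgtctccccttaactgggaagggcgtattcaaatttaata
Mgst1, chr6:138140277-138140526, + strand: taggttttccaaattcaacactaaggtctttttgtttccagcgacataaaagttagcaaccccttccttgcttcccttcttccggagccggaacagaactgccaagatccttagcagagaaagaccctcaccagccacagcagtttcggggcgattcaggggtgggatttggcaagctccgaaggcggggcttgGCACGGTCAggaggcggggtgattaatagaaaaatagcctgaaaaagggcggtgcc
Ugt1a6a, chr1:88134559-88134808, + strand: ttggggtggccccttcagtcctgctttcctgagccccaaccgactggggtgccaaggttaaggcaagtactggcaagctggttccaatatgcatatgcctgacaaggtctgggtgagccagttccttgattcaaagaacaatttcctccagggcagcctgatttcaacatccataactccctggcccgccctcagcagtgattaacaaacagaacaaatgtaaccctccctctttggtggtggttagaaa
The match began 134 bases before the start in Gclm, 92 in Txnrd1, 121 in Gsta3 and 56 in Mgst1, and the Ugt1a6a window held neither core. A core in the window thus accompanied both overlapping values (Gclm, Txnrd1) and values without overlap (Mgst1 and Gsta3). The windows of Sqstm1, Mgst2, Ugt1a7c and Tkt, whose values also did not overlap, held no antioxidant core and are not shown. Gsta3 and Mgst2 reached the filter only through Mdm2 C462A and are no support here. Txnrd1 and Mgst1 also have windows without the core, which are not shown. Hmox1, Gsta4 and Gclc had no window. A match is not evidence of binding.

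Set directly against p53Mdm2 KO, Mdm2 C462A had 3 members with an unadjusted p under 0.05, all higher (8.11%, beside 1.2% of all genes higher and 2.98%, or 503 genes, in either direction): Hmox1, Mgst2 and Ugt1a6. Mgst2 differed by 0.71 ± 0.249 and Ugt1a6 by 2.28 ± 0.870, each with a limma adjusted p of 1.0, and the latter was 0.98 without Mdm2 C462A replicate 2. Mgst2 reached the filter only through Mdm2 C462A. Without overlap, 7 members were higher (18.9%, beside 15.8% of all genes): Hmox1, Mgst2, Ugt1a6, Gstt1, Abcc4, Blvrb and Fth1. Another 6 were lower (16.2%, beside 17.1%): Gsr, Prdx1, Prdx6, G6pdx, Tkt and Cbr3. These shares lie near the background. All 4 heme and iron members had a positive difference and all 4 thioredoxin members a negative one, with medians of 0.64 and -0.34 beside 0.01 over all genes, and 1 of the 4 heme and iron members and 0 of the 4 thioredoxin members had an unadjusted p under 0.05. The count depends on the libraries used, as does the share of all genes. Without p53 KO replicate 1, 2 or 3, the members higher at this p numbered 4, 1 and 3. Beside them, 2.22%, 0.74% and 0.728% of all genes were higher. Leaving out a mutant library leaves 1 in its group, so those fits are not counted here.

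**Figure D4:**
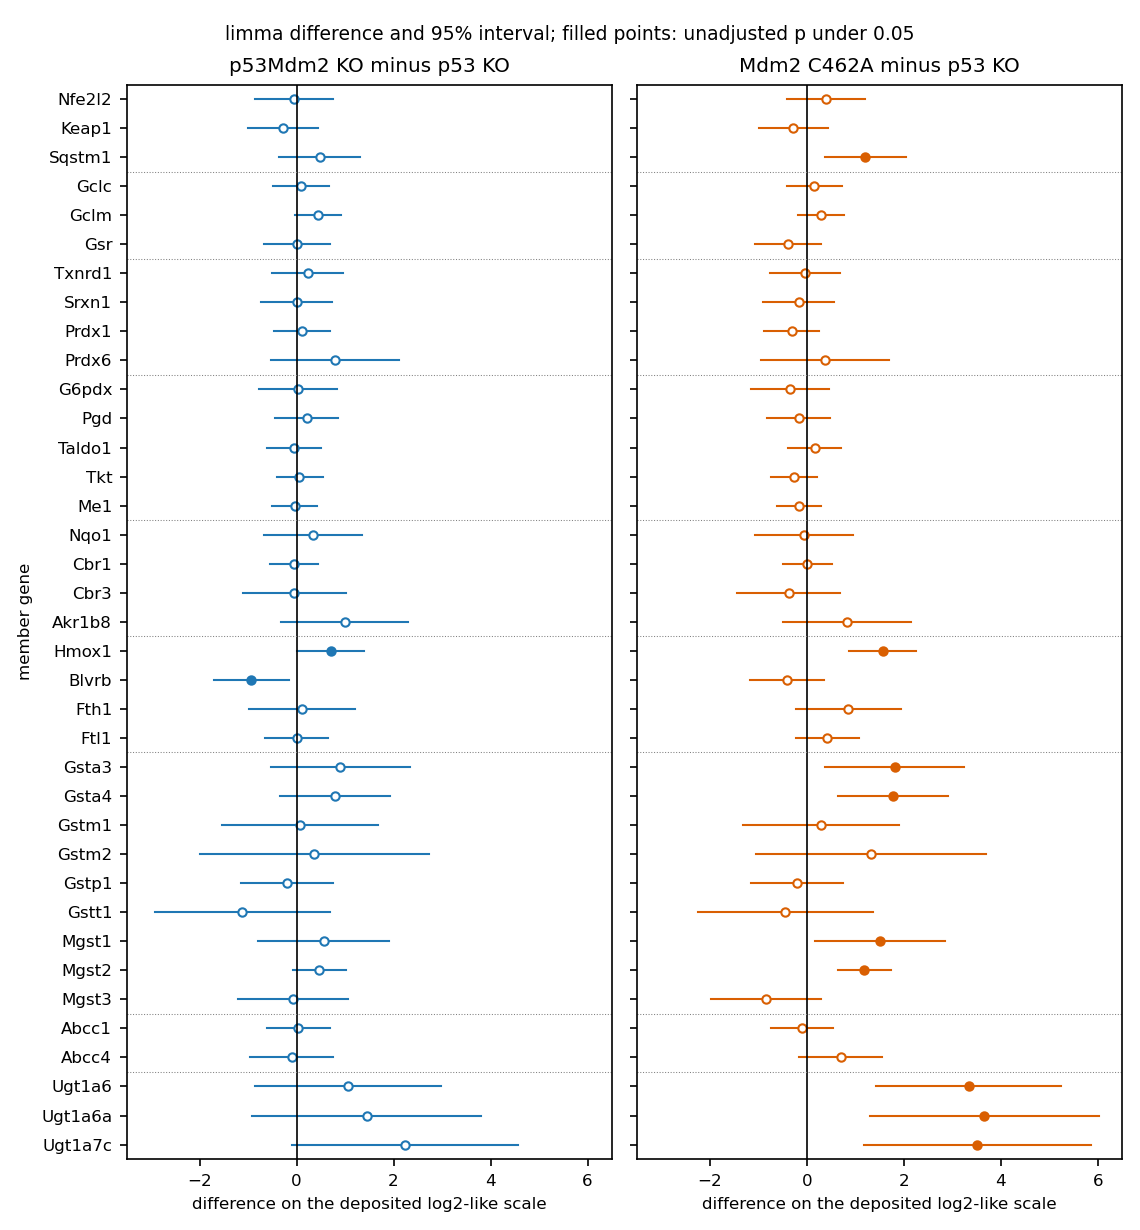
Limma differences of each member on the deposited log2-like scale, with 95% intervals, for p53Mdm2 KO (left) and Mdm2 C462A (right) against p53 KO; filled points have an unadjusted p under 0.05. Most intervals cross 0. For Mdm2 C462A those of 9 members lie to the right of it, beside 4.98% of all genes higher at this p. Among the 9, Gsta3 and Mgst2 reached the filter only through that group, and Ugt1a6, Ugt1a6a and Ugt1a7c share exons. For p53Mdm2 KO, Hmox1 lies to the right (beside 1.51% of all genes) and Blvrb to the left (1.49%).

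Beyond the members, 105 other genes of these pathways were listed, of which 102 were in the table and 97 were tested. In Mdm2 C462A against p53 KO, 13 of the 97 (13.4%) were higher and 4 (4.12%) lower at an unadjusted p under 0.05, beside 4.98% and 5.44% of all genes, and 6 of the 13 were further Ugt1a entries. The median difference over the list was 0.03, and 0 passed the adjusted threshold. Abcg2, an efflux transporter, had 2337, 3146.5 and 3403 normalized reads in p53 KO, 2294 and 2861 in p53Mdm2 KO, and 1712 and 1352 in Mdm2 C462A, which lay below all the other libraries, with differences of -0.93 against p53 KO and -0.74 against p53Mdm2 KO. Msrb3, a methionine sulfoxide reductase, had 8108, 7905 and 9773 in p53 KO, 5990.0 and 7037.5 in p53Mdm2 KO, and 5004 and 5380.0 in Mdm2 C462A (difference from p53 KO -0.72). Both mutant groups were below p53 KO for Msrb3.

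In p53Mdm2 KO against p53 KO, 2 listed genes were higher and 1 was lower at that p, in all 3.09% beside 3% of all genes, a share near the background; their values follow as description. Tfrc, the transferrin receptor that brings iron into cells, had 1840 (replicate 1), 7304 and 3890.5 normalized reads in p53 KO, 12804 and 14084 in p53Mdm2 KO, and 10189 and 9599 in Mdm2 C462A. The lowest of the 4 mutant libraries exceeded the highest p53 KO library for Tfrc (difference 1.84 in p53Mdm2 KO and 1.40 in Mdm2 C462A). Maff, a small Maf partner of Nrf2, had 751.7, 873.4 and 594.3 in p53 KO, 1207 and 1257 in p53Mdm2 KO, and 745.7 and 1300.0 in Mdm2 C462A (0.74 in p53Mdm2 KO). Glo1, glyoxalase 1, which removes methylglyoxal with glutathione, had 8279, 5958 and 6441 in p53 KO, 2908 and 4372 in p53Mdm2 KO, and 2612 and 5898 in Mdm2 C462A (-0.93 in p53Mdm2 KO). The adjusted p of these genes was 0.437 or more.

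Values of 2 other gene lists departed most from the average of the 7 libraries in Mdm2 C462A replicate 2. The level of 10 mitosis genes, the median over genes of the deviation from the average of the 7 libraries on the deposited scale, was 0.46, 0.34 and 0.32 in p53 KO, 0.01 and 0.39 in p53Mdm2 KO, and -0.30 and -1.32 in Mdm2 C462A, and all 10 were lower in Mdm2 C462A than in p53 KO (median -1.27). The level of 10 Atf4 targets, genes of the integrated stress response, was -1.21, 0.01 and -0.34 in p53 KO, 0.40 and -0.59 in p53Mdm2 KO, and 0.15 and 1.32 in Mdm2 C462A, and 9 of 10 were higher in Mdm2 C462A (median 1.47). Of all 16900 tested genes, 8645 were higher and 8255 lower in Mdm2 C462A than in p53 KO, with a median of 0.01. The level of the 37 members was 0.23 and 0.02 in Mdm2 C462A and -0.28 to 0.04 in p53 KO. The stress factor Ddit3 had 21317 normalized reads in Mdm2 C462A replicate 2 and 1052 to 3686 elsewhere. That library also held the highest values of Sqstm1, Gsta3, Gsta4, Mgst1, Hmox1 and the Ugt1a entries. Of 10 aryl hydrocarbon receptor genes, 8 were tested, and they include the members Nqo1 and Ugt1a6a, with differences of -0.06 and 3.66 between Mdm2 C462A and p53 KO. The level of the list was 0.00 and -0.02 in Mdm2 C462A and -0.52 to 0.47 in p53 KO. The listed genes Cyp1a1 and Cyp1a2 were too low to be tested, with at most 2.6 normalized reads in any library. The part of proliferation, of the stress response or of the aryl hydrocarbon receptor in the members' differences was not tested.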

How the data were processed

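The members and gene lists were chosen with earlier results of these data known. The 7 libraries came from an Illumina TruSeq preparation, read once over 50 bases, per the labels' protocols. For the authors' steps, the submitters' processing notes name CASAVA 1.8.2, Bowtie2 2.1.0, DESeq 1.14.0 and build mm9. The read counter, annotation and strand setting were not given in the sources used here. Reads of antisense or overlapping genes may therefore be included. The deposited values are on a log2-like scale made by the authors, whose lowest value of 3.36 stands for 0 reads. Inverting a variance-stabilizing formula, whose form was inferred from the values, returned normalized reads and, for 100% of values within a tolerance of 0.05, whole reads, which gave the depths.

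Differences were tested on the deposited log2 values with limma 3.58.1 (R 4.3.3, moderated test with a mean-variance trend, all 7 libraries in 1 fit, group means only), for genes with an average of at least 10 normalized reads, with Benjamini-Hochberg adjustment over 16900 genes and a threshold of 0.05. All 37 members passed this filter, Gsta3 and Mgst2 only through the Mdm2 C462A libraries. The fit was tested on simulated data. Because the unit is a log2 value, no count model was the main test. Groups of 3 and 2 libraries were compared, and SDs are over libraries. Values in every library are given for the regulators and the Ugt1a members. So are those of up to 8 members per comparison with the smallest unadjusted p under 0.05. The most abundant member of any other role group and up to 4 pathway genes per comparison were added. Of these pathway genes, Ugt1a9 and Ugt1a10 are given only as ranges with other Ugt1a entries. Further members were added after their values were seen. Shared sequence was measured as the share of 50-base windows of GENCODE M21 transcripts that recur in another gene, for 36 of 37 members. Alternatives were another scale, filter and scaling, voom, array weights, a replicate block, only the groups compared, and leaving out libraries.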

Additional observations from a re-analysis of the deposited data

How the results depend on the processing

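The number of members past the adjusted threshold was 0 in every comparison under all 19 alternatives. The number with an unadjusted p under 0.05 moved by more than 1.5 times as follows. For p53Mdm2 KO against p53 KO it was 2 in the main fit (3% of all genes). It was 5 with array weights (5.45%) and 1 with only the groups compared (2.96%). Mdm2 C462A against p53Mdm2 KO gave 1 on log2(reads + 1) (2.91% of all genes), beside 3 (2.98%). Without both libraries that stand apart, the members' median for Mdm2 C462A against p53 KO was 0.41, beside 0.16. Leaving out 1 library at a time gave counts of 1 to 3 (p53Mdm2 KO against p53 KO), 3 to 10 (Mdm2 C462A against p53 KO) and 0 to 7 (the mutants against each other). The medians then ran from 0.00 to 0.26, 0.08 to 0.30 and -0.01 to 0.24.

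The labels do not say whether same-numbered libraries are paired. The correlation of their deviations was 0.04 and 0.20 between p53 KO and p53Mdm2 KO, -0.16 and -0.05 between p53 KO and Mdm2 C462A, and 0.04 between the mutants. In a group of 2 libraries the deviations mirror each other, so these values cannot settle pairing. With the replicate block and against p53 KO, the counts under an unadjusted p of 0.05 were 1 (p53Mdm2 KO) and 8 (Mdm2 C462A). Beside them lay 2.62% and 8.79% of all genes. Between the mutants the count was 1, beside 1.65%. The p53Mdm2 KO differences of Gsr and Tkt from p53 KO with this block were -0.23 and -0.05.

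Of 31 named differences, 24 kept their direction in every alternative, and the others had small values. Against p53 KO, p53Mdm2 KO reversed to -0.00 for Gsr with voom, to 0.14 for Nfe2l2, -0.01 for Tkt and -0.15 for Abcc1 with array weights, and to 0.15 for Nfe2l2 and -0.14 for Abcc1 without both libraries. Mdm2 C462A reversed to 0.00 for Abcc1 with quantile normalization, and to 0.06 for Keap1 and 0.10 for Prdx1 without both libraries. Leaving out 1 library gave ranges of -0.48 to 0.38 for Nfe2l2, -0.20 to 0.28 for Abcc1, -0.23 to 0.12 for Gsr and -0.05 to 0.20 for Tkt in p53Mdm2 KO, and -0.27 to 0.08 for Abcc1 in Mdm2 C462A. The cause was not tested. Depth limits Gsta3, Mgst2 and the p53 KO values of the Ugt1a entries, which lie near the floor of 3 reads.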
